A study of Jatropha curcas with 22 samples.

Results

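Leaf RNA of well-watered Jatropha curcas, a drought-tolerant oilseed shrub, was compared between the end and the start of one greenhouse season: day 49/52 against day 0. The comparison covers every gene model with at least 10 reads in 2 of the 4 libraries concerned, which is 22002 of the 57437 gene models in the count table (38.3%). The filter used read depth and not the difference between the days. A total of 159 members passed it through day 49/52 only and 218 through day 0 only, so for those a difference was built into the choice. The second highest of the 4 counts was 10 to 12 reads in 536 members just inside the limit, and 8 or 9 reads in 512 gene models just outside it.

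All plants were potted seedlings of the Cape Verde islands strain, 36 days old when the experiment began, in a greenhouse under natural day length. The day 49/52 group (2 libraries) came from plants that were irrigated throughout and carries a joint label for both days, with the number of pooled plants not given. The day 0 group (2 libraries) came from pools of 6 plants before any water was withheld, under the same irrigation. A further watered leaf group of day 13 (2 libraries, pools of 3 plants) lies between them, and the series also holds leaves of plants without water or watered again, and root tips. From each plant 1 leaf of up to 2 cm was cut near the shoot tip. Plant age, season and the position of the sampled leaf on the shoot all move with the day, so their parts cannot be told apart, and in bulk tissue fewer cells of a type and less RNA per cell cannot be told apart either. Whether the 2 libraries of a group came from separate plants is not stated, so the p-values take account of no more than the variation between libraries.

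A leaf near the shoot tip is still building its photosynthetic machinery. Nuclear genes supply the enzymes of carbon fixation, of chlorophyll synthesis and most proteins of the chloroplast ribosome, while cytosolic ribosomal proteins are made in step with growth. Plants also pass from a juvenile to an adult and a flowering state, a change in which MADS-box and squamosa promoter-binding transcription factors act in Arabidopsis.

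Total counts were 47662831 and 41911089 reads in the day 49/52 libraries and 53151087 and 53959267 reads in the day 0 libraries. Levels are given as CPM, counts scaled to library size after TMM scaling (which removes differences in library composition), first for replicate 1 and then for replicate 2 of each group. The tissue label was checked against marker genes: 36 of 38 mesophyll marker genes were members, and they summed to 6161 and 9855 CPM at day 49/52 and 8374 and 7045 CPM at day 0, against 63.3 to 173.6 CPM in the root libraries. Flower markers (MADS-box and other floral genes, 32 members of 84) summed to 476.1 and 883 CPM at day 49/52, against 406.7 and 385.5 CPM at day 0. Replicate 1 of day 49/52 thus lay much nearer to day 0 than replicate 2. The root libraries had 162.5 to 348.9 CPM of these flower markers, so the set is not particular to flowers. Of its genes 8 were called higher and 3 lower. Root marker genes (6 members of 10) separated leaf from root less clearly than the mesophyll markers did. They summed to 271.6 and 258 CPM at day 49/52 and 231 and 253.4 CPM at day 0. The root libraries had 351.7 to 484 CPM of these root markers. The single guard cell marker was near 0 in all 4 leaf libraries. The day 49/52 libraries differed more from each other than the day 0 libraries did: of 15055 members with at least 5 CPM in a group, 544 lay over 2-fold apart at day 49/52 and 119 at day 0.

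At day 49/52, 898 genes were higher (4.08% of members) and 904 were lower (4.11%) than at day 0, by the edgeR quasi-likelihood test at a Benjamini-Hochberg adjusted p under 0.05. The higher genes moved further: 550 of 898 differed at least 2-fold and 156 at least 4-fold, against 148 and 16 of the 904 lower genes. Of these calls 43 higher and 14 lower genes had passed the read filter through 1 group only, and without them 507 and 118 of 855 higher genes, against 134 and 6 of 890 lower genes, reached those folds. The median size of the log2 fold change was 1.17 among the higher genes and 0.73 among the lower genes, while over all 22002 members the median log2 fold change was -0.00 with quartiles of -0.28 and 0.30. In every called gene the libraries of the groups did not overlap, which also held for 11627 of all members. The calls lean on both day 0 libraries: without day 0 replicate 1 the test called 14 genes higher and 3 lower, and without day 0 replicate 2 it called 1 higher and 2 lower, although all 898 and all 904 genes kept their direction. Without day 49/52 replicate 1 it called 848 higher and 387 lower. These losses extend to the gene groups and genes below, so that 6 and 3 of the named genes remained called without the first and without the other day 0 library. At an unadjusted p under 0.05, 5578 members differed. Counts of calls in the lists below are to be read against the 4.08% higher and 4.11% lower of all members. Each list median below is followed in brackets by its lowest and highest value over the main and 17 alternative settings, and 21 of the 55 list medians changed sign among them. Of the 100 called genes named by rule, 7 lost the call in more alternative settings than kept it, as said beside each.

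**Figure D1:**
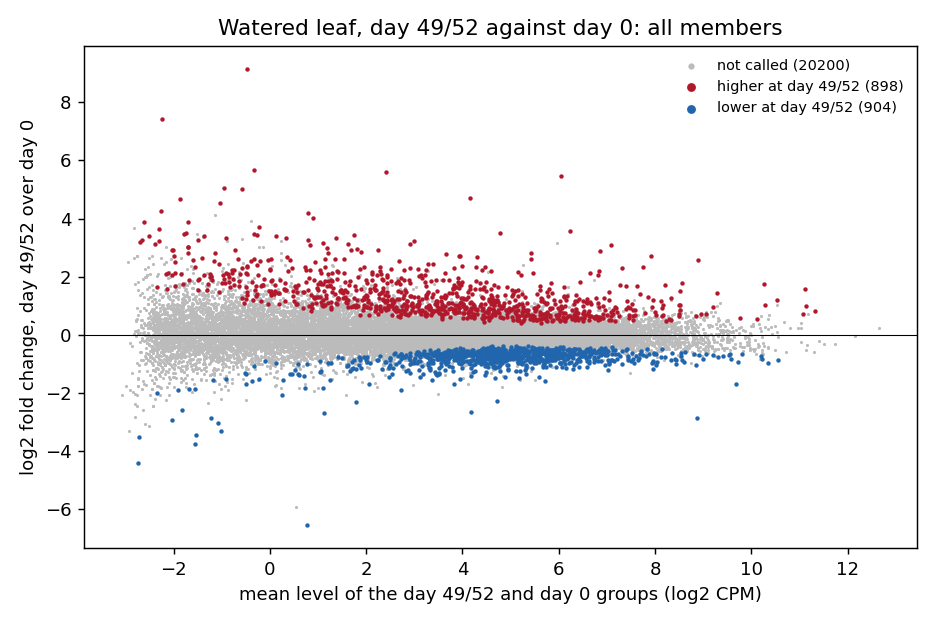
Log2 fold change of day 49/52 over day 0 (vertical axis) against the mean level of the groups in log2 CPM (horizontal axis) for the 22002 members, 1 point each, with the 898 genes higher at day 49/52 in red, the 904 lower in blue and the others in grey. The red points reach further from 0 than the blue ones.

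Called genes of carbon fixation and chlorophyll synthesis were nearly all lower in the later leaves. Of 22 carbon fixation genes tested, 5 fell (22.7%) and 1 rose (4.55%), with a median log2 fold change of -0.50 (-0.73 to -0.31), and the called chlorophyll synthesis genes were all lower, 6 of 17 (35.3%) with a median of -0.49 (-0.51 to -0.42). Rubisco activase (Jcr4S01242.20), which keeps the carbon-fixing enzyme Rubisco active, had 406.5 and 375.5 CPM at day 49/52, against 1257 and 1267 CPM at day 0 (log2 fold change -1.69 ± 0.23 SE, adjusted p = 0.00656). All 4 libraries sat close to their group mean, about 3-fold apart between the days. The alpha subunit of the Rubisco-binding protein (Jcr4S03954.10), a chloroplast chaperonin that folds Rubisco, had 947 and 801 CPM at day 49/52, against 1772 and 1685 CPM at day 0 (log2 fold change -0.98 ± 0.16, adjusted p = 0.00967). Its beta subunit (Jcr4S00653.20) had 1070 and 1056 CPM at day 49/52, against 1995 and 1923 CPM at day 0 (log2 fold change -0.88 ± 0.14, adjusted p = 0.00944). Both subunits thus stood lower in each day 49/52 library than in either day 0 library. Carbonic anhydrase (Jcr4S00089.130), which interconverts carbon dioxide and bicarbonate, went the other way with 21.7 and 29.2 CPM at day 49/52, against 9.24 and 8.98 CPM at day 0 (log2 fold change 1.48 ± 0.22, adjusted p = 0.00764).

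The chlorophyll synthesis genes that fell lie at several steps of the pathway, not all of them adjoining, and 11 of the 17 tested were not called. Porphobilinogen deaminase (Jcr4S01314.70), an early enzyme that joins porphobilinogen units, had 38 and 34.45 CPM at day 49/52, against 61.6 and 59.4 CPM at day 0 (log2 fold change -0.74 ± 0.12, adjusted p = 0.00999). The other 5, chosen after their values were seen as all called members of the list, were uroporphyrinogen decarboxylase (Jcr4S02381.10), coproporphyrinogen III (Jcr4S09217.20), protoporphyrinogen (Jcr4S01162.50), a magnesium chelatase subunit (Jcr4S00003.40) and a chlorophyll synthase-type gene (Jcr4S00228.60), with log2 fold changes of -0.63, -0.70, -0.49, -0.61 and -0.62. In chlorophyll breakdown, 1 of 8 tested genes rose and 1 fell. Chlorophyllase-1 (Jcr4S01992.60), which cleaves the phytol tail of chlorophyll, had 28 and 31.8 CPM at day 49/52, against 13.3 and 15.4 CPM at day 0 (log2 fold change 1.06 ± 0.22, adjusted p = 0.0217). The gene described by pheophorbide a (Jcr4S05539.10), an intermediate of chlorophyll breakdown, had 20.7 and 30.6 CPM at day 49/52, against 65 and 75.3 CPM at day 0 (log2 fold change -1.45 ± 0.25, adjusted p = 0.0111).

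The photosystem and antenna genes did not move as a block. Their called members were all lower, 5 of 35 with a median of -0.12 (-0.46 to 0.21). Their summed level was 10289 and 16288 CPM at day 49/52, against 13112 and 11221 CPM at day 0, so the day 49/52 libraries lay on either side of both day 0 libraries. The leading member was a PsbP domain protein (Jcr4S08778.30), related to the oxygen-evolving complex, with 13.35 and 17.95 CPM at day 49/52, against 35 and 32.9 CPM at day 0 (log2 fold change -1.12 ± 0.20, adjusted p = 0.0131). The early light-induced gene (Jcr4S00724.90), of a family that protects chloroplasts from excess light while they develop, was the furthest below day 0 among the described genes with at least 5 CPM. It had 60.2 and 165 CPM at day 49/52, against 804 and 846 CPM at day 0 (log2 fold change -2.88 ± 0.57, adjusted p = 0.0188).

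Other plastid and primary metabolism genes among the most abundant lower genes were a glyceraldehyde 3-phosphate gene (Jcr4S02490.40) with 852 and 885 CPM at day 49/52, against 1567 and 1493 CPM at day 0 (log2 fold change -0.82 ± 0.16, adjusted p = 0.017), and a plastid aldolase-like gene (Jcr4S06157.30) with 546 and 621 CPM at day 49/52, against 1165 and 1061 CPM at day 0 (log2 fold change -0.93 ± 0.21, adjusted p = 0.0288). Aldolase splits and joins sugar phosphates in the Calvin cycle and in glycolysis. Glutamine synthetase (Jcr4S00007.130), which fixes ammonium, had 257.5 and 277 CPM at day 49/52, against 528.5 and 499.7 CPM at day 0 (log2 fold change -0.94 ± 0.15, adjusted p = 0.00896). Zeaxanthin epoxidase (Jcr4S05819.20), a xanthophyll cycle enzyme upstream of abscisic acid, had 56.9 and 60.3 CPM at day 49/52, against 106 and 114 CPM at day 0 (log2 fold change -0.91 ± 0.14, adjusted p = 0.00802). Each was lower in both day 49/52 libraries. Among 56 genes of sucrose cleavage and starch, 2 fell (3.57%, against 4.11% of all members) and 1 rose (1.79%, against 4.08%). Granule-bound starch synthase (Jcr4S11739.10), which makes amylose, had 2.36 and 3.2 CPM at day 49/52, against 10.3 and 10.65 CPM at day 0 (log2 fold change -1.92 ± 0.28, adjusted p = 0.00758). Beta-amylase 5 (Jcr4S02153.30), a starch-degrading enzyme, had 66.2 and 77 CPM at day 49/52, against 34.6 and 34.3 CPM at day 0 (log2 fold change 1.05 ± 0.18, adjusted p = 0.0106).

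**Figure D2:**
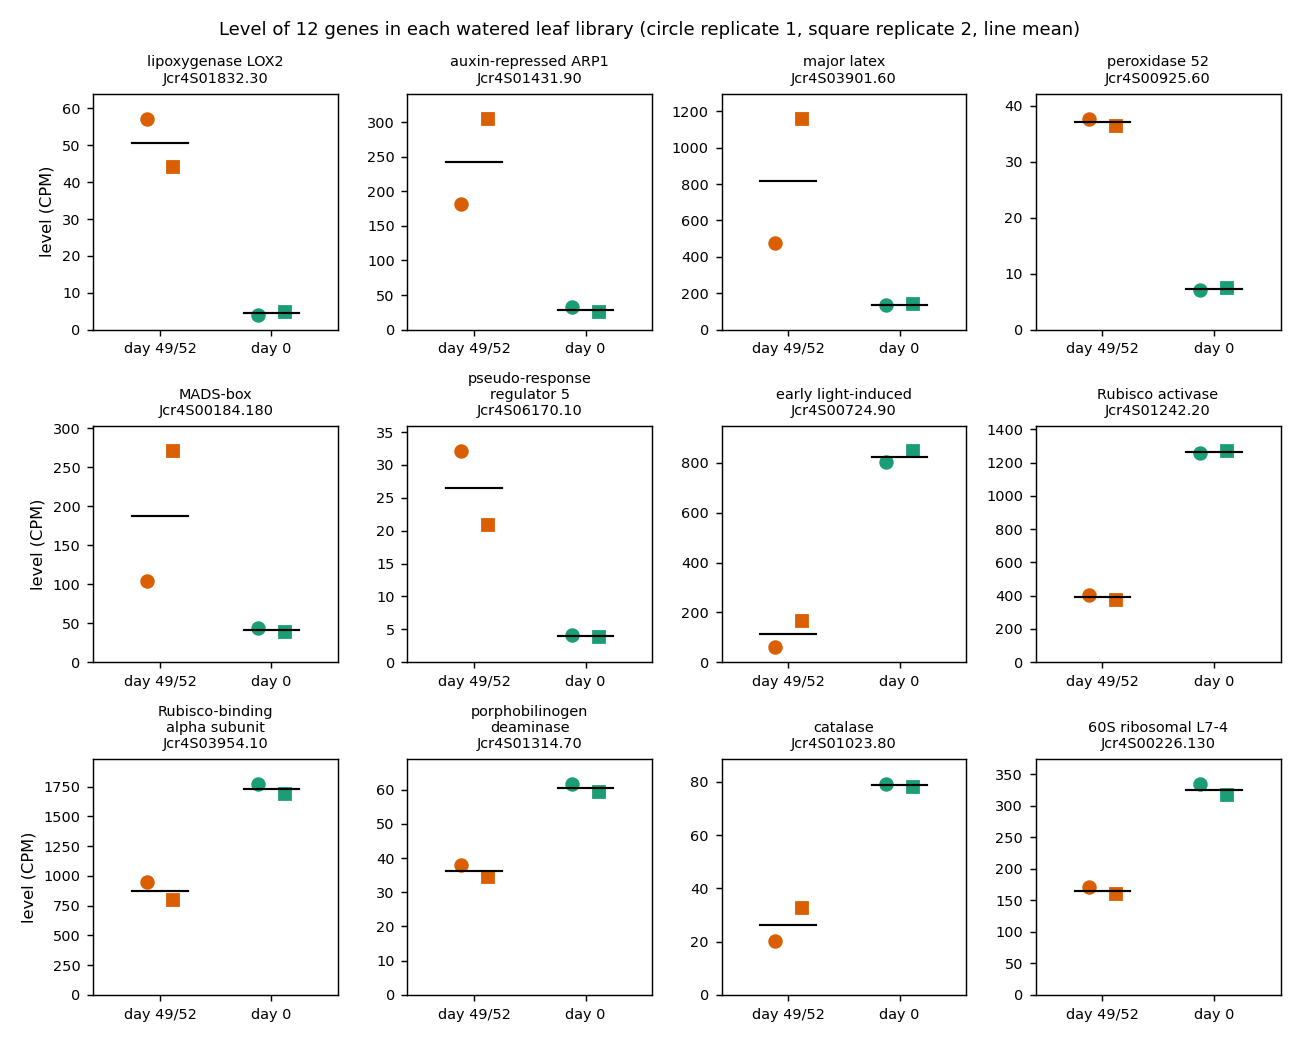
Level in CPM (vertical axis, linear from 0) of 12 genes in the day 49/52 libraries (orange, left) and the day 0 libraries (green, right), with circles for replicate 1, squares for replicate 2 and a line at the mean. The first 6 genes are higher and the last 6 lower at day 49/52, and the major latex and MADS-box genes show the widest gap between the day 49/52 libraries.

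Ribosomal protein genes that were called were nearly all lower, and so were their summed levels. Of 142 cytosolic ribosomal protein genes tested, 15 fell (10.6%) and 1 rose (0.704%), 129 had a log2 fold change below 0, and the median was -0.39 (-0.57 to -0.24). The called genes of the organelle-type ribosomal proteins were all lower, 11 of 61, with 53 below 0 and a median of -0.39 (-0.58 to -0.24). The cytosolic set summed to 42521 and 51133 CPM at day 49/52, against 64348 and 57725 CPM at day 0. The organelle set summed to 4064 and 5377 CPM at day 49/52, against 6771 and 6050 CPM at day 0. In both sets each day 49/52 library lay below each day 0 library, and replicate 2 lay nearer to day 0.

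The 60S ribosomal protein L7-4 (Jcr4S00226.130) had 170.4 and 160 CPM at day 49/52, against 334 and 316.5 CPM at day 0 (log2 fold change -0.98 ± 0.20, adjusted p = 0.021). A chloroplast 50S ribosomal protein (Jcr4S03633.20) had 92.1 and 87.6 CPM at day 49/52, against 191.5 and 159 CPM at day 0 (log2 fold change -0.96 ± 0.14, adjusted p = 0.00754). The most abundant called ribosomal gene was 40S ribosomal protein S9-2 (Jcr4S00094.160) with 903 and 850 CPM at day 49/52, against 1592 and 1348 CPM at day 0 (log2 fold change -0.75 ± 0.18, adjusted p = 0.0345). The cytosolic gene that rose, a 60S protein (Jcr4S00351.70), was scarce, with 1.265 and 1.5 CPM at day 49/52, against 0.319 and 0.52 CPM at day 0 (log2 fold change 1.72 ± 0.32, adjusted p = 0.0146). Ribosomal proteins often have near-identical copies, and reads could be split between them.

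Cell division genes showed no common direction. Of 174 tested, 8 fell (4.6%, against 4.11% of all members) and 4 rose (2.3%, against 4.08%), with a median of -0.04 (-0.14 to 0.03). A gene described only as cell division (Jcr4S00139.130) had 21.3 and 18.3 CPM at day 49/52, against 38.9 and 42.4 CPM at day 0 (log2 fold change -1.04 ± 0.15, adjusted p = 0.00734). A kinesin-II gene (Jcr4S02207.10), a microtubule motor, had 75.5 and 72.3 CPM at day 49/52, against 33.3 and 44.55 CPM at day 0 (log2 fold change 0.92 ± 0.16, adjusted p = 0.0121). Among 23 histone genes the linker histone H1-3 (Jcr4S00402.60) was the called one, with 224 and 435 CPM at day 49/52, against 141 and 125 CPM at day 0 (log2 fold change 1.30 ± 0.26, adjusted p = 0.0186). Of 74 heat shock protein genes, 5 fell (6.76%, against 4.11% of all members) and 3 rose (4.05%, against 4.08%). A heat shock family gene (Jcr4S06028.20) had 326 and 275 CPM at day 49/52, against 627 and 607 CPM at day 0 (log2 fold change -1.04 ± 0.18, adjusted p = 0.012). A scarce heat shock gene (Jcr4S01616.40) had 2.615 and 1.95 CPM at day 49/52, against 0.1875 and 0.26 CPM at day 0 (log2 fold change 3.34 ± 0.51, adjusted p = 0.00802).

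Floral identity and flowering-time genes that were called were mostly higher in the later leaves. Of 45 tested (of 100 in the table), 11 rose (24.4%) and 3 fell (6.67%), and the median log2 fold change was 0.41 (0.20 to 0.56). The largest rise among its genes of at least 1 CPM was in a MADS-box gene (Jcr4S00184.180) with 104 and 270 CPM at day 49/52, against 44.3 and 38.2 CPM at day 0 (log2 fold change 2.18 ± 0.38, adjusted p = 0.0126). Its neighbour in numbering, a further MADS-box gene (Jcr4S00184.170, chosen after its values were seen), had 42.3 and 101.5 CPM at day 49/52, against 16.8 and 16.2 CPM at day 0 (log2 fold change 2.12 ± 0.35, adjusted p = 0.0104). In both, replicate 2 of day 49/52 was over 2-fold above replicate 1, and both lay above day 0. A squamosa promoter-binding gene (Jcr4S05050.30, also chosen after its values were seen) had 14.5 and 27 CPM at day 49/52, against 5.21 and 6.11 CPM at day 0 (log2 fold change 1.88 ± 0.30, adjusted p = 0.00924). A MADS-box family gene (Jcr4S09416.30) went the other way with 1.98 and 2.14 CPM at day 49/52, against 5.14 and 3.97 CPM at day 0 (log2 fold change -1.14 ± 0.25, adjusted p = 0.023). The flower marker sums given above move with these genes and hold many of the same gene models. The part of flower buds was not tested.

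Among 26 light receptor and clock genes the called ones were all higher, 3 genes that act in the evening part of the clock or in day-length sensing in Arabidopsis. Pseudo-response regulator 5 (Jcr4S06170.10) had 32.1 and 20.9 CPM at day 49/52, against 4.16 and 3.88 CPM at day 0 (log2 fold change 2.72 ± 0.65, adjusted p = 0.0347). FKF1 (Jcr4S03391.30), a blue-light receptor of the flowering pathway, had 21.1 and 11.8 CPM at day 49/52, against 2.81 and 3.32 CPM at day 0 (log2 fold change 2.42 ± 0.63, adjusted p = 0.0447). Gigantea (Jcr4S00109.60), its partner, had 205 and 153 CPM at day 49/52, against 91.5 and 106 CPM at day 0 (log2 fold change 0.86 ± 0.22, adjusted p = 0.0393). FKF1 and gigantea were chosen after their values were seen. The labels give no hour of sampling, and the day 13 libraries of pseudo-response regulator 5 differed about 4-fold from each other, at 123.1 and 29.0 CPM.

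Called defence genes were mostly higher. Of 142 pathogenesis and defence protein genes tested, 13 rose (9.15%, against 4.08% of all members) and 1 fell (0.704%, against 4.11%). In this list 107 had a log2 fold change above 0, and the median was 0.35 (0.08 to 0.45). Major latex genes, named for a protein of poppy latex and singled out after their values were seen, gave 5 of the 13, and these were all of that name that were tested (of 10 in the table). The list's share of higher genes thus leans on this name, and the share without them was not taken. The most abundant (Jcr4S03901.60) had 475 and 1159 CPM at day 49/52, against 136 and 138 CPM at day 0 (log2 fold change 2.58 ± 0.39, adjusted p = 0.00813). Its near neighbours Jcr4S03901.50 and Jcr4S03901.10 had log2 fold changes of 2.35 and 1.73, and Jcr4S13339.10 and Jcr4S02756.20 had 1.79 and 2.29. In all 5 replicate 2 of day 49/52 was the higher one, and reads could be split between such copies, so the values of single genes are uncertain. Chitinase 2 (Jcr4S02113.20), which attacks fungal cell walls, had 249.7 and 260.2 CPM at day 49/52, against 73 and 87.05 CPM at day 0 (log2 fold change 1.67 ± 0.19, adjusted p = 0.00432), with both later libraries alike. This chitinase and the 4 other latex genes were chosen after their values were seen.

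Lipoxygenase LOX2 (Jcr4S01832.30), a chloroplast enzyme that starts jasmonate synthesis in Arabidopsis, had 57.2 and 44.1 CPM at day 49/52, against 4.09 and 4.81 CPM at day 0 (log2 fold change 3.51 ± 0.41, adjusted p = 0.00515). It was the third furthest above day 0 among the described genes of at least 5 CPM, and its groups lay far apart. Over the 34 jasmonate and lipoxygenase genes, 3 rose and 1 fell, with a median of 0.05 (-0.01 to 0.22). An alpha-amylase subtilisin inhibitor (Jcr4S01589.10), of a family that blocks digestive enzymes of insects, had 31.4 and 33.5 CPM at day 49/52, against 6.805 and 6.09 CPM at day 0 (log2 fold change 2.33 ± 0.26, adjusted p = 0.00387). Of 87 protease and protease inhibitor genes, 6 rose (6.9%, against 4.08% of all members) and 2 fell (2.3%, against 4.11%). The aspartic proteinase nepenthesin-1 (Jcr4S00739.60) was the most abundant of them with 2083 and 1260 CPM at day 49/52, against 838 and 817 CPM at day 0 (log2 fold change 1.01 ± 0.26, adjusted p = 0.0389). A subtilisin-like protease (Jcr4S00241.100) had 1.29 and 1.2 CPM at day 49/52, against 2.625 and 3.27 CPM at day 0 (log2 fold change -1.24 ± 0.26, adjusted p = 0.02). The called WRKY factors, regulators of defence genes, were all higher, 5 of 49 with a median of 0.32 (0.09 to 0.39), led by WRKY 26 (Jcr4S00602.120) with 16.8 and 16.7 CPM at day 49/52, against 6.13 and 7.63 CPM at day 0 (log2 fold change 1.28 ± 0.18, adjusted p = 0.00687).

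Class III peroxidases, secreted enzymes that cross-link cell walls, had 11 of 42 tested genes higher (26.2%) and 1 lower (2.38%), with a median of 0.47 (0.11 to 0.90). They summed to 1894 and 2081 CPM at day 49/52, against 1223 and 1150 CPM at day 0. Peroxidase 52 (Jcr4S00925.60) had 37.65 and 36.4 CPM at day 49/52, against 7.16 and 7.42 CPM at day 0 (log2 fold change 2.34 ± 0.27, adjusted p = 0.00465). The libraries of each group were nearly equal for it. Peroxidase 42 (Jcr4S04907.30, chosen after its values were seen as the most abundant) had 662 and 893 CPM at day 49/52, against 417 and 384 CPM at day 0 (log2 fold change 0.96 ± 0.21, adjusted p = 0.0243). A peroxidase superfamily gene (Jcr4S00296.140) was lower with 7.21 and 9.02 CPM at day 49/52, against 15.6 and 13.1 CPM at day 0 (log2 fold change -0.82 ± 0.16, adjusted p = 0.0169).

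Of 136 cytochrome P450 genes, 22 rose (16.2%) and 2 fell (1.47%), with a median of 0.40 (0.10 to 0.57). Cytochrome P450 86B1 (Jcr4S06490.10), a hydroxylase of long-chain fatty acids for suberin in Arabidopsis, had 16.5 and 27.5 CPM at day 49/52, against 3.02 and 3.415 CPM at day 0 (log2 fold change 2.77 ± 0.34, adjusted p = 0.00521). A P450 71B10 gene (Jcr4S04732.40) was lower with 31.7 and 28.6 CPM at day 49/52, against 46.7 and 39.7 CPM at day 0 (log2 fold change -0.52 ± 0.13, adjusted p = 0.0367, called in 7 of 17 settings). Glucosyltransferases of small molecules rose in 11 of 95 and fell in 1, with a median of 0.19 (0.04 to 0.25): a scarce member (Jcr4S15381.30) had 1.29 and 0.893 CPM at day 49/52, against 0.15 and 0.204 CPM at day 0 (log2 fold change 2.61 ± 0.47, adjusted p = 0.0126). A UGT 85A2-like gene (Jcr4S03347.30) had 17.6 and 23.2 CPM at day 49/52, against 52.3 and 45.05 CPM at day 0 (log2 fold change -1.25 ± 0.27, adjusted p = 0.0244). Flavonoid and anthocyanin genes were called both ways, 12 higher and 6 lower of 97, with a median of -0.01 (-0.12 to 0.14). A flavonoid 3- gene whose description is cut short (Jcr4S00012.120) had 23.7 and 22 CPM at day 49/52, against 7.16 and 7.98 CPM at day 0 (log2 fold change 1.59 ± 0.22, adjusted p = 0.00662). A scarce dihydroflavonol reductase (Jcr4S00995.40) had 0.401 and 0.2585 CPM at day 49/52, against 0.675 and 1.485 CPM at day 0 (log2 fold change -1.70 ± 0.46, adjusted p = 0.0481, called in 4 of 16 settings). Its day 0 libraries were over 2-fold apart.

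Terpenoid genes had 1 of 32 higher and 1 lower, 3.1% each way, under the 4.08% and 4.11% of all members. Terpene synthase 3 (Jcr4S00757.40) had 46.1 and 39.4 CPM at day 49/52, against 19.4 and 19.6 CPM at day 0 (log2 fold change 1.13 ± 0.19, adjusted p = 0.00981). A geranylgeranyl pyrophosphate gene (Jcr4S03823.20), of the branch to chlorophyll and carotenoids, had 28.35 and 36.9 CPM at day 49/52, against 48.3 and 49.4 CPM at day 0 (log2 fold change -0.58 ± 0.16, adjusted p = 0.0483, called in 5 of 17 settings). Curcins, toxic ribosome-inactivating proteins of this plant, gave no call among 4 tested by edgeR or DESeq2 and 1 gene at an unadjusted p under 0.05. Curcin-L (Jcr4S08182.10) had 1.22 and 1.6 CPM at day 49/52, against 0.637 and 0.9095 CPM at day 0 (log2 fold change 0.86 ± 0.38, adjusted p = 0.192). Curcin and casbene marker genes summed to 414.4 and 850 CPM at day 49/52, against 425.2 and 417 CPM at day 0, so a single later library carried the gap.

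Called enzymes against reactive oxygen were mostly lower: of 101 tested, 10 fell (9.9%) and 4 rose (3.96%), with a median of -0.13 (-0.25 to 0.01). Catalase (Jcr4S01023.80), which breaks down hydrogen peroxide, had 20.3 and 32.5 CPM at day 49/52, against 79.15 and 78.1 CPM at day 0 (log2 fold change -1.57 ± 0.33, adjusted p = 0.0215). Monodehydroascorbate reductase (Jcr4S00820.50, chosen after its values were seen), which recycles ascorbate, had 39 and 50.3 CPM at day 49/52, against 93 and 81.6 CPM at day 0 (log2 fold change -0.97 ± 0.18, adjusted p = 0.0156). Thioredoxin h (Jcr4S00686.50), a small redox protein, was higher with 13.4 and 28.8 CPM at day 49/52, against 7.5 and 6.31 CPM at day 0 (log2 fold change 1.61 ± 0.41, adjusted p = 0.0407, called in 8 of 17 settings), and its day 49/52 libraries were over 2-fold apart. Called glutathione transferases were all higher, 3 of 31 (9.68%), with a list median of -0.23 (-0.27 to 0.05) and 6 members over 2-fold higher in replicate 2 than in replicate 1 of day 49/52, and tau 19 (Jcr4S05368.20) led with 34.9 and 42.3 CPM at day 49/52, against 12.3 and 11.5 CPM at day 0 (log2 fold change 1.70 ± 0.26, adjusted p = 0.00829).

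Called cell wall genes were mostly higher. Wall-loosening genes rose in 8 of 95 and fell in 1, with a median of 0.23 (0.10 to 0.29). A polygalacturonase subunit (Jcr4S10435.10), of pectin breakdown, had 5.61 and 4.44 CPM at day 49/52, against 0.694 and 0.947 CPM at day 0 (log2 fold change 2.61 ± 0.45, adjusted p = 0.0113). Pectinesterase 68 (Jcr4S00561.50), which removes methyl groups from pectin, had 37.3 and 40.2 CPM at day 49/52, against 86.05 and 82.5 CPM at day 0 (log2 fold change -1.12 ± 0.27, adjusted p = 0.0318). Alpha-expansin 5 (Jcr4S00998.80, chosen after its values were seen), which loosens walls in growing cells, had 88.6 and 108 CPM at day 49/52, against 42.05 and 38.2 CPM at day 0 (log2 fold change 1.29 ± 0.19, adjusted p = 0.00771). Secondary wall and lignin genes rose in 9 of 94 and fell in 1, with a median of 0.19 (-0.03 to 0.30). A laccase (Jcr4S00972.20), which polymerises lignin units, had 2.17 and 1.83 CPM at day 49/52, against 0.169 and 0.204 CPM at day 0 (log2 fold change 3.41 ± 0.55, adjusted p = 0.00968). A cinnamyl-alcohol dehydrogenase (Jcr4S00899.40), which makes those units, had 35.75 and 39.9 CPM at day 49/52, against 57.4 and 51.5 CPM at day 0 (log2 fold change -0.52 ± 0.11, adjusted p = 0.0221).

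Surface lipid genes held the most abundant described gene that rose, a lipid transfer protein precursor (Jcr4S01930.10) with 2968 and 3596 CPM at day 49/52, against 2040 and 1662 CPM at day 0 (log2 fold change 0.83 ± 0.17, adjusted p = 0.0198). Lipid transfer proteins carry lipids to the cuticle. In that list 2 of 28 rose (7.14%, against 4.08% of all members) and 1 fell (3.57%, against 4.11%). The largest rise was in a lipid-transfer protein gene (Jcr4S00065.160) with 22.1 and 16.5 CPM at day 49/52, against 7.59 and 6.81 CPM at day 0 (log2 fold change 1.42 ± 0.27, adjusted p = 0.0158). Called GDSL esterase lipases were all higher, 4 of 19, led by Jcr4S02681.20 with 4.37 and 4.3 CPM at day 49/52, against 1.01 and 0.9095 CPM at day 0 (log2 fold change 2.17 ± 0.33, adjusted p = 0.00777). Proline-rich cell wall protein (Jcr4S04540.50) was a further abundant gene that rose, with 2390 and 1733 CPM at day 49/52, against 772 and 1009 CPM at day 0 (log2 fold change 1.21 ± 0.32, adjusted p = 0.044).

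Hormone genes were called mostly in the higher direction. Called auxin genes were all higher, 12 of 138 (8.7%), with a median of 0.22 (0.07 to 0.26). Auxin-repressed protein ARP1 (Jcr4S01431.90), named for its repression by auxin in other plants, had 181 and 305 CPM at day 49/52, against 32 and 24.85 CPM at day 0 (log2 fold change 3.10 ± 0.29, adjusted p = 0.00186), and all libraries of day 49/52 lay far above day 0. Called gibberellin genes were all higher, 8 of 67 (11.9%), with a median of 0.02 (-0.01 to 0.19); a GASA-like gene (Jcr4S00003.10), of a gibberellin-induced family, had 35.4 and 56.7 CPM at day 49/52, against 13.9 and 15.5 CPM at day 0 (log2 fold change 1.65 ± 0.37, adjusted p = 0.0273). DELLA repressors and gibberellin receptors were both among the 8. Brassinosteroid genes rose in 4 of 31 and fell in 1. BRU1 (Jcr4S13217.10), a wall enzyme induced by brassinosteroid in soybean, had 11.2 and 11.7 CPM at day 49/52, against 2.27 and 2.6 CPM at day 0 (log2 fold change 2.23 ± 0.35, adjusted p = 0.00896). A BRI1-associated receptor kinase (Jcr4S00425.160) had 46.7 and 46 CPM at day 49/52, against 62.8 and 71.4 CPM at day 0 (log2 fold change -0.53 ± 0.14, adjusted p = 0.0463, called in 4 of 17 settings).

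The called cytokinin gene of 27 tested, cytokinin dehydrogenase 3 (Jcr4S09774.30), which degrades cytokinin, was lower with 2.51 and 1.41 CPM at day 49/52, against 6.79 and 6.07 CPM at day 0 (log2 fold change -1.71 ± 0.40, adjusted p = 0.0301). Of 63 ethylene, ERF and DREB genes 3 rose (4.76%, near the 4.08% of all members) and 0 fell, led by a scarce ERF117-like factor (Jcr4S03834.10) with 1.39 and 1.81 CPM at day 49/52, against 0.506 and 0.371 CPM at day 0 (log2 fold change 1.86 ± 0.37, adjusted p = 0.017). Of 12 abscisic acid genes, zeaxanthin epoxidase, given above, was the called one. Among 12 LEA and dehydrin genes, protectants of drying cells, a late embryogenesis abundant gene (Jcr4S00616.50) was the called one with 21.7 and 27.7 CPM at day 49/52, against 10.65 and 9.3 CPM at day 0 (log2 fold change 1.31 ± 0.27, adjusted p = 0.0191). Osmolyte synthesis gave no call by edgeR among 19 genes (3 at an unadjusted p under 0.05, and 1 higher and 1 lower by DESeq2). Stachyose synthase (Jcr4S01818.60) had the smallest p there, with 8.44 and 10.95 CPM at day 49/52, against 16.3 and 15 CPM at day 0 (log2 fold change -0.69 ± 0.20, adjusted p = 0.0597).

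Among transporters, the Ca2+/H+ exchanger (Jcr4S00152.110), which loads calcium into the vacuole, had the second largest rise of the described genes with at least 5 CPM, 162 and 97.4 CPM at day 49/52, against 2.925 and 2.93 CPM at day 0 (log2 fold change 5.47 ± 1.02, adjusted p = 0.0176). Without day 49/52 replicate 1 its adjusted p was 0.05745. The calcium-activated outward-rectifying potassium channel gene (Jcr4S00108.150), which releases potassium across the vacuolar membrane, had 7.3 and 5.08 CPM at day 49/52, against 0.656 and 0.483 CPM at day 0 (log2 fold change 3.44 ± 0.69, adjusted p = 0.0186). Called aquaporins, water channels, were all higher, 3 of 27 (11.1%), led by NIP1.1 (Jcr4S00197.140) with 29.99 and 35.8 CPM at day 49/52, against 9.97 and 11.2 CPM at day 0 (log2 fold change 1.64 ± 0.20, adjusted p = 0.0051). Called sugar transporters were also all higher, 2 of 29 (6.9%), and SWEET17 (Jcr4S09115.10), a fructose carrier in Arabidopsis, had 2.7 and 3.74 CPM at day 49/52, against 0.937 and 0.872 CPM at day 0 (log2 fold change 1.83 ± 0.23, adjusted p = 0.00557).

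Nutrient genes followed. Nitrate and ammonium genes rose in 5 of 37 and fell in 2. A nitrate excretion gene (Jcr4S10236.30) had 1.33 and 0.8225 CPM at day 49/52, against 0.2625 and 0.427 CPM at day 0 (log2 fold change 1.64 ± 0.37, adjusted p = 0.0285), and glutamine synthetase, given above, was the most lowered. Phosphate and sulfate genes rose in 3 of 40 and fell in 1. A sulfate transporter (Jcr4S00672.80) had 1.67 and 0.94 CPM at day 49/52, against 0.15 and 0.297 CPM at day 0 (log2 fold change 2.53 ± 0.53, adjusted p = 0.0205). The lowered gene of that list (Jcr4S02074.40), described as a phosphoenolpyruvate carboxylase family protein and not as a transporter, had 30.01 and 30.55 CPM at day 49/52, against 42.9 and 44.5 CPM at day 0 (log2 fold change -0.53 ± 0.11, adjusted p = 0.0201). Phosphate transporter 1 (Jcr4S02317.40, chosen after its values were seen) had 70.9 and 45.8 CPM at day 49/52, against 13.5 and 12.8 CPM at day 0 (log2 fold change 2.15 ± 0.44, adjusted p = 0.0205). Iron, zinc and copper genes had a median of 0.58 (0.20 to 0.62), with all 4 calls of 36 higher, and zinc transporter 8 (Jcr4S02378.10) had 2.17 and 2.16 CPM at day 49/52, against 0.9 and 0.65 CPM at day 0 (log2 fold change 1.48 ± 0.30, adjusted p = 0.0191).

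Calcium sensors and calcium-dependent kinases rose in 10 of 79 and fell in 1, with a median of 0.28 (0.11 to 0.35). An EF-hand calcium-binding gene (Jcr4S00817.50) had 11.6 and 41.7 CPM at day 49/52, against 5.66 and 4.57 CPM at day 0 (log2 fold change 2.38 ± 0.57, adjusted p = 0.0342), and replicate 2 was over 3-fold above replicate 1 at day 49/52. A calcineurin B-related gene (Jcr4S00184.160) had 18.1 and 14.8 CPM at day 49/52, against 25.9 and 26.4 CPM at day 0 (log2 fold change -0.66 ± 0.15, adjusted p = 0.0296). Receptor-like kinases, which sense signals at the cell surface, rose in 16 of 146 and fell in 2, with a median of 0.29 (0.06 to 0.48). A feronia-like kinase (Jcr4S17182.20) had 3.73 and 2.515 CPM at day 49/52, against 0.281 and 0.371 CPM at day 0 (log2 fold change 3.25 ± 0.59, adjusted p = 0.0133). A cysteine-rich receptor kinase (Jcr4S13426.10) had 0.443 and 0.3525 CPM at day 49/52, against 1.2 and 0.835 CPM at day 0 (log2 fold change -1.35 ± 0.34, adjusted p = 0.0405). A Pto-like kinase (Jcr4S00878.10), a relative of a tomato resistance gene, had 79.1 and 70.8 CPM at day 49/52, against 11.5 and 9.63 CPM at day 0 (log2 fold change 2.83 ± 0.47, adjusted p = 0.0116). A serine/threonine kinase (Jcr4S01164.80) was lower with 4.72 and 5.22 CPM at day 49/52, against 28.7 and 33.7 CPM at day 0 (log2 fold change -2.65 ± 0.51, adjusted p = 0.0168).

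Few members of the other transcription factor families were called. NAC factors rose in 4 of 66 (6.06%) and fell in 1, led by NAC 001 (Jcr4S08160.10) with 1.2 and 1.22 CPM at day 49/52, against 0.169 and 0.297 CPM at day 0 (log2 fold change 2.37 ± 0.36, adjusted p = 0.00829). NAC 042 (Jcr4S14739.10) had 23.3 and 20.8 CPM at day 49/52, against 30.8 and 30.9 CPM at day 0 (log2 fold change -0.48 ± 0.12, adjusted p = 0.0391, called in 8 of 17 settings). Called MYB factors were all higher, 6 of 76 (7.89%), and an R2R3 MYB gene (Jcr4S06895.10) had 11.45 and 16.2 CPM at day 49/52, against 3.75 and 3.06 CPM at day 0 (log2 fold change 2.02 ± 0.28, adjusted p = 0.00662). Of 45 homeobox factors 2 rose (4.44%, near the 4.08% of all members) and 0 fell, and the HD-ZIP gene ATHB-40 (Jcr4S03153.10) had 1.265 and 1.53 CPM at day 49/52, against 0.356 and 0.167 CPM at day 0 (log2 fold change 2.40 ± 0.48, adjusted p = 0.0175). Among 48 leaf and meristem development genes 1 TCP factor (Jcr4S00480.60), of a family that shapes leaf growth, was called with 79.45 and 55 CPM at day 49/52, against 42.5 and 37.9 CPM at day 0 (log2 fold change 0.74 ± 0.20, adjusted p = 0.0456, called in 7 of 17 settings). The bHLH factors gave no call among 39 by edgeR or DESeq2 and 2 genes at an unadjusted p under 0.05, and the smallest p (Jcr4S01997.60) had 70.2 and 62 CPM at day 49/52, against 45.9 and 45.8 CPM at day 0 (log2 fold change 0.53 ± 0.22, adjusted p = 0.165). A GATA zinc finger gene (Jcr4S13372.10) outside these families was lower with 12 and 14.6 CPM at day 49/52, against 39.95 and 35.5 CPM at day 0 (log2 fold change -1.50 ± 0.29, adjusted p = 0.0168).

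Smaller sets completed the survey. Called senescence genes were all higher, 2 of 20, but the list showed no common direction. Its median was 0.06 (0.02 to 0.22), with 11 genes above 0 and 9 below, and 4 were over 2-fold higher in replicate 2 than in replicate 1 of day 49/52. A senescence-associated gene (Jcr4S02960.10) had 17.8 and 44.2 CPM at day 49/52, over 2-fold apart, against 10.55 and 10.1 CPM at day 0 (log2 fold change 1.59 ± 0.34, adjusted p = 0.0236). Among 7 vascular and phloem genes sieve element occlusion A (Jcr4S09440.10), a phloem plugging protein, had 91.6 and 49.1 CPM at day 49/52, against 24.7 and 33.4 CPM at day 0 (log2 fold change 1.28 ± 0.26, adjusted p = 0.0202), and it is also among the 6 vascular markers. These summed to 142.3 and 113.2 CPM at day 49/52, against 72.4 and 79.7 CPM at day 0, and without it to 51.2 and 63.4 CPM at day 49/52, against 47.6 and 46.3 CPM at day 0. The part of vein tissue was not tested. Retroelement genes had 2 of 145 higher (1.38%, under the 4.08% of all members) and 0 lower. The leading one was Jcr4S25023.10 with 2.07 and 2.73 CPM at day 49/52, against 0.862 and 0.854 CPM at day 0 (log2 fold change 1.48 ± 0.34, adjusted p = 0.0274).

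No call came from edgeR in 4 further lists. Of 31 organelle-encoded genes, 29 had a log2 fold change above 0 and the median was 0.58 (0.12 to 0.98). They summed to 568 and 329 CPM at day 49/52, against 281.5 and 277 CPM at day 0, with 7 members over 2-fold higher in replicate 1 than in replicate 2 of day 49/52. Of the 31, 5 were higher at an unadjusted p under 0.05 and 1 by DESeq2, and cytochrome c oxidase subunit 2 (Jcr4S12718.10) had 1.055 and 0.564 CPM at day 49/52, against 0.3 and 0.3155 CPM at day 0 (log2 fold change 1.39 ± 0.42, adjusted p = 0.0668). Of 6 seed storage and oil body genes, 2 were higher at an unadjusted p under 0.05 and 2 by DESeq2, with oleosin 1 (Jcr4S00009.70) at 8.225 and 7.9 CPM at day 49/52, against 4.67 and 3.53 CPM at day 0 (log2 fold change 0.98 ± 0.34, adjusted p = 0.101). The 8 suberin and root barrier genes and the 1 guard cell gene gave 0 at an unadjusted p under 0.05 and 0 by DESeq2. The smallest p were 0.202 (adjusted) for Jcr4S00234.100, an omega-hydroxypalmitate feruloyl transferase of suberin, and 0.316 (adjusted) for Jcr4S00012.70, a stomatal cytokinesis gene. Jcr4S00012.70 had 78.7 and 70.7 CPM in leaf at day 49/52 and 82.2 and 89.7 CPM at day 0. In watered root it had 76.9 and 75.5 CPM at day 49/52 and 99.9 and 94.3 CPM at day 13. It was thus not particular to leaf and gives no measure of guard cells.

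**Figure D3:**
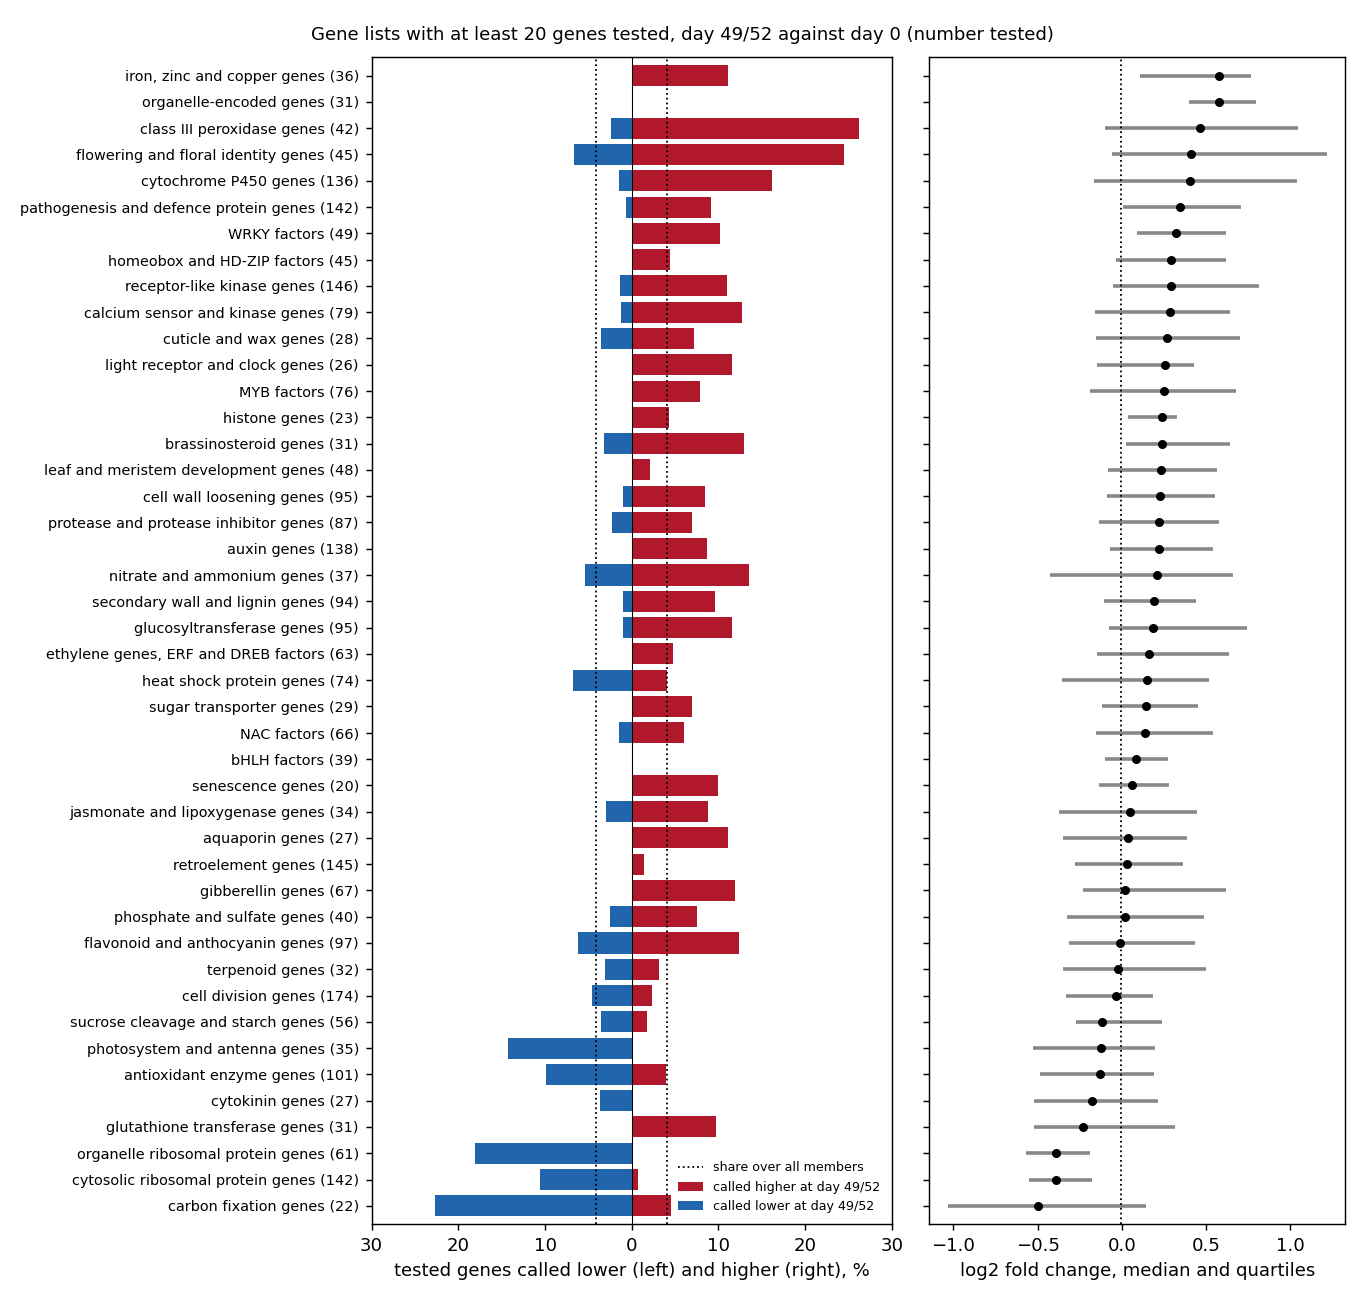
Gene lists with at least 20 genes tested: on the left the share of tested genes in % called higher (red, to the right of 0) and lower (blue, to the left of 0) at day 49/52, with dotted lines at the shares over all members (4.08% and 4.11%), and on the right the median (point) and quartiles (bar) of the log2 fold change, with the number tested in brackets. In the left panel the red bars of class III peroxidases (26.2%), floral identity genes (24.4%) and P450 genes (16.2%) and the blue bars of carbon fixation (22.7%) and organelle ribosomal protein genes (18%) are the longest.

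Several leading genes belong to no list. Bark storage protein A-like (Jcr4S03341.20), of a family that stores nitrogen in poplar bark, had the largest rise among the described genes with at least 5 CPM, 7.02 and 13.9 CPM at day 49/52, against 0.1125 and 0.3155 CPM at day 0 (log2 fold change 5.59 ± 0.73, adjusted p = 0.00659). A phosphorylase superfamily gene (Jcr4S07829.10) had 209.9 and 197 CPM at day 49/52, against 16 and 39.3 CPM at day 0 (log2 fold change 2.88 ± 0.65, adjusted p = 0.0285). The day 0 libraries of that phosphorylase gene were over 2-fold apart. An MTA/SAH gene (Jcr4S09196.20), described by substrates of the methionine salvage cycle, had 3500 and 2443 CPM at day 49/52, against 1361 and 1655 CPM at day 0 (log2 fold change 0.98 ± 0.24, adjusted p = 0.0353). Organ-specific protein (Jcr4S05159.10) had 1603 and 2204 CPM at day 49/52, against 628 and 503.5 CPM at day 0 (log2 fold change 1.75 ± 0.32, adjusted p = 0.0129). Translationally controlled tumor protein (Jcr4S03730.40), a growth-related protein of all eukaryotes, had 2559 and 2811 CPM at day 49/52, against 1760 and 1542 CPM at day 0 (log2 fold change 0.70 ± 0.18, adjusted p = 0.0375). These last 3 were among the 6 most abundant described genes that rose.

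Among secreted proteins, the rhicadhesin receptor (Jcr4S04808.20), a germin-like protein named for bacterial attachment in pea, had 11.2 and 17.55 CPM at day 49/52, against 1.71 and 1.39 CPM at day 0 (log2 fold change 3.21 ± 0.35, adjusted p = 0.00381). A germin-like protein of subfamily 1 (Jcr4S03500.20) had 6.75 and 6.3 CPM at day 49/52, against 0.825 and 0.984 CPM at day 0 (log2 fold change 2.85 ± 0.26, adjusted p = 0.00186). A galactose oxidase (Jcr4S04308.40) had 15.6 and 11.3 CPM at day 49/52, against 1.52 and 1.54 CPM at day 0 (log2 fold change 3.13 ± 0.29, adjusted p = 0.00186). All 3 were below 2 CPM in each day 0 library. Lower genes outside the lists included cysteine synthase 26 (Jcr4S03923.10), which builds sulfur into cysteine, with 17.4 and 20.7 CPM at day 49/52, against 55.4 and 51.9 CPM at day 0 (log2 fold change -1.50 ± 0.14, adjusted p = 0.00186), and a glyceraldehyde-3-phosphate dehydrogenase-like gene (Jcr4S00205.140) with 8.54 and 4.96 CPM at day 49/52, against 22 and 21.4 CPM at day 0 (log2 fold change -1.69 ± 0.38, adjusted p = 0.0267). A Maf-like gene (Jcr4S11431.10) and a transmembrane protein gene (Jcr4S01002.50) had log2 fold changes of -1.56 and -1.52.

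Of the 898 higher genes 259 had no description of function, and of the 904 lower genes 223 had none. Jcr4S11639.10 had 32.7 and 36.1 CPM at day 49/52, against 1.125 and 1.5 CPM at day 0 (log2 fold change 4.71 ± 0.29, adjusted p = 0.000204). Jcr4S17782.10 had 131 and 146 CPM at day 49/52, against 10.01 and 13.5 CPM at day 0 (log2 fold change 3.56 ± 0.43, adjusted p = 0.00521). In the other direction, Jcr4S00270.20, described only as DNA binding, had 9.53 and 8.2 CPM at day 49/52, against 43.2 and 43.8 CPM at day 0 (log2 fold change -2.29 ± 0.20, adjusted p = 0.00186). Jcr4S06836.40 had 1.055 and 1.25 CPM at day 49/52, against 6.07 and 5.46 CPM at day 0 (log2 fold change -2.33 ± 0.26, adjusted p = 0.00387). Jcr4S11639.10, Jcr4S00270.20 and cysteine synthase 26 (Jcr4S03923.10) were the named genes called in all 17 alternative settings, the loss of either day 0 library included.

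The day 13 watered leaves, which entered neither group, were used to describe the path between the ends. For 740 of the 898 higher genes and 776 of the 904 lower genes the day 13 mean lay between those of day 0 and day 49/52. It lay beyond the day 49/52 mean for 112 of the higher and 51 of the lower genes, and on the far side of day 0 for 46 and 77. The called genes were chosen for a gap between the ends, so another mean can fall between them by that choice alone. The share over all members was not taken, so these counts do not show a steady path. Rubisco activase (Jcr4S01242.20) was already low at day 13, with 1257 and 1267 CPM at day 0, 383.5 and 389 CPM at day 13 and 406.5 and 375.5 CPM at day 49/52. The 60S protein L7-4 (Jcr4S00226.130) showed the same order, with 334 and 316.5 CPM at day 0, 162 and 125 CPM at day 13 and 170.4 and 160 CPM at day 49/52. The summed level of the cytosolic ribosomal proteins was 64348 and 57725 CPM at day 0, 37704 and 36111 CPM at day 13 and 42521 and 51133 CPM at day 49/52, lowest in the middle.

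Other genes moved late or peaked in between. Peroxidase 52 (Jcr4S00925.60) had 7.16 and 7.42 CPM at day 0, 9.81 and 8.6 CPM at day 13 and 37.65 and 36.4 CPM at day 49/52. The rhicadhesin receptor (Jcr4S04808.20) had 1.71 and 1.39 CPM at day 0, 1.985 and 1.86 CPM at day 13 and 11.2 and 17.55 CPM at day 49/52. Both stayed near their day 0 level until day 13. The phosphorylase superfamily gene (Jcr4S07829.10) peaked, with 16 and 39.3 CPM at day 0, 633 and 678 CPM at day 13 and 209.9 and 197 CPM at day 49/52. The Ca2+/H+ exchanger (Jcr4S00152.110) had 83.8 and 8.44 CPM at day 13, with the libraries about 10-fold apart. These paths are descriptions, with no test of their shape.

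**Figure D4:**
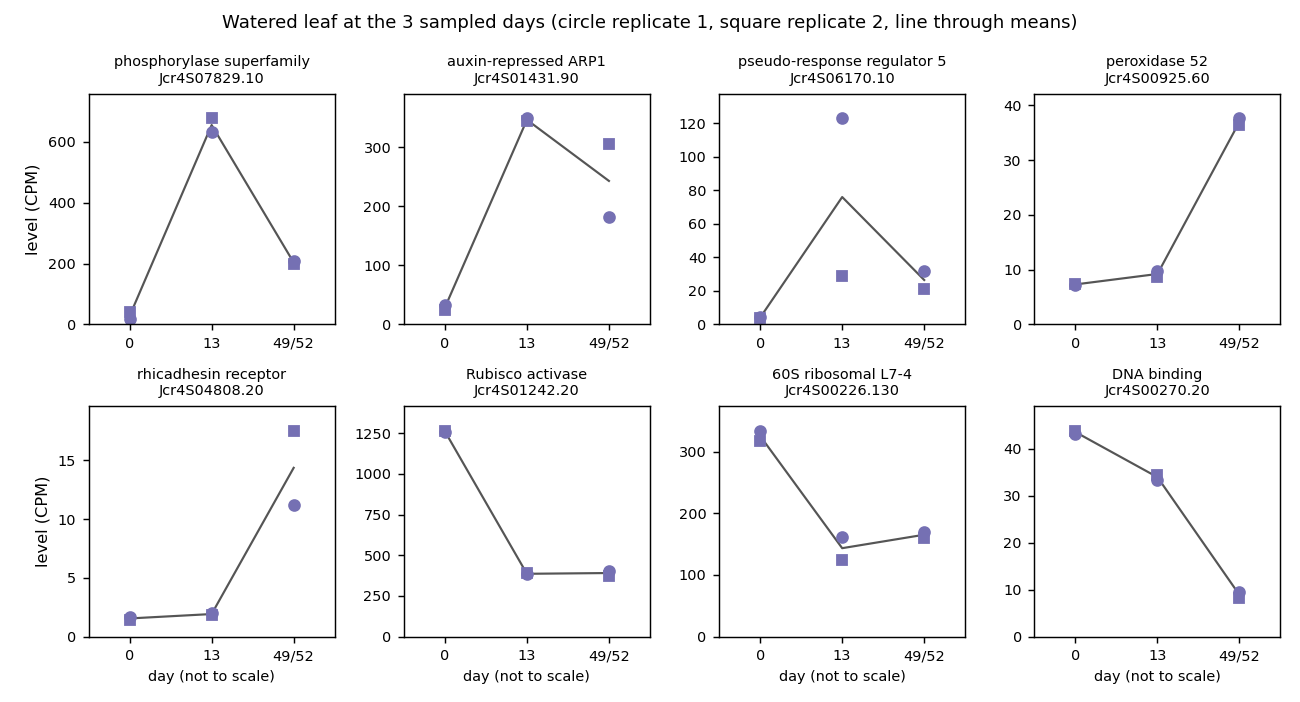
Level in CPM (vertical axis, linear from 0) of 8 genes in the watered leaf libraries of day 0, day 13 and day 49/52 (horizontal axis, not to scale), with circles for replicate 1, squares for replicate 2 and a line through the means. The phosphorylase gene and ARP1 are highest at day 13, peroxidase 52 and the rhicadhesin receptor stay low until day 13, and Rubisco activase and L7-4 are low from day 13 on.

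Libraries that entered neither group of the comparison were then examined for the called genes. In watered root tips, day 49/52 against day 13, 838 of the 898 genes higher in leaf were tested, of which 294 were higher (35.1%, against 15% of all members tested there) and 133 lower (15.9%, against 16.8%). Of the 885 genes lower in leaf that were tested, 20.8% were lower in root, against 16.8%, and 81 were higher (9.15%). Their median log2 fold change in root was 0.49 for the genes higher in leaf and -0.12 for those lower in leaf, against 0.02 over all. The genes higher in leaf were thus higher in root in 294 cases and opposite in 133. Of the genes lower in leaf, 620 of 885 were not called in root. Most members tested there were not called either, with 15% higher and 16.8% lower, so this count alone does not set the lowered genes apart.

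Leaves rewatered to day 52, set against watered day 13 leaves, gave another picture. Of the 898 genes higher at day 49/52, 48 were higher (5.35%, against 4.88% of members) and 173 were lower (19.3%, against 6.51%). Of the 904 lower genes, 39 were higher (4.31%) and 127 were lower (14.1%). In both sets the share called lower stood above that of all members. In leaves after severe drought at day 49, against the same day 13 leaves, 367 of the 898 were higher (40.9%, against 24.5% of members) and 260 lower (29.0%, against 27.6%). Of the 904 lower genes, 332 were lower (36.7%) and 183 higher (20.2%). These comparisons start from day 13 and include a drought, so they hold no repeat of the day 0 baseline. They also share the day 13 control.

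**Figure D5:**
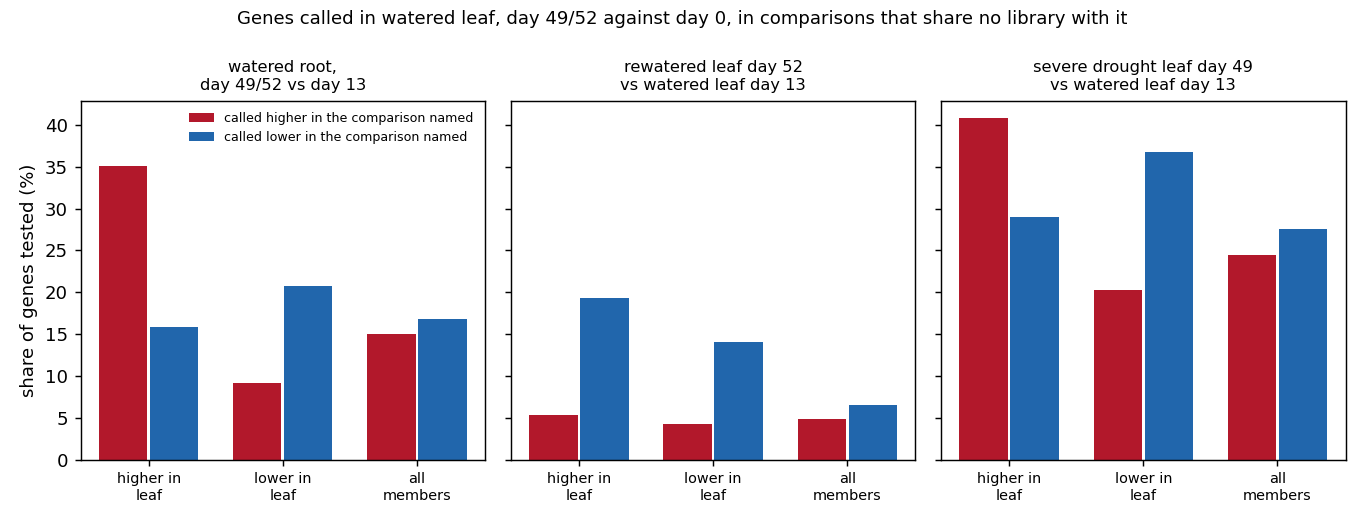
Share in % (vertical axis) of the genes higher in watered leaf at day 49/52, of the genes lower there and of all members tested that were called higher (red) or lower (blue) in comparisons that share no library with day 49/52 against day 0. In root the genes higher in leaf reach 35.1% called higher against 15% of members, and in rewatered leaf both sets exceed the members' 6.51% called lower. The leaf comparisons share the fit and the estimate of the spread that gave the calls.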

How the data were processed

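Young leaves were sequenced as single-end reads of 50 bp from libraries made from 400 ng of RNA with a kit that keeps no strand, per the labels. The authors deposited whole-number read counts per gene model with no normalization, and a separate table of RPKM values whose lowest value is 1.0, used here only in an alternative. The aligner, the build and the counting of reads with several matches are not stated in those labels. No coordinates or sequences were matched to the gene models, so none are printed.

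Counts of members were fitted in R 4.3.3 with edgeR 4.0.16: TMM scaling and robust quasi-likelihood fits of the group means over the 12 leaf libraries, which share 1 estimate of the spread, and for root over the 10 root libraries. The test was two-sided and the calling threshold was 0.05 after Benjamini-Hochberg adjustment. The SE was derived from F, and levels are CPM over TMM-scaled totals, with n = 2 libraries per group. Marker gene sums are CPM over library totals without TMM scaling. At these depths 3 reads correspond to 0.0629 and 0.0716 CPM at day 49/52 and to 0.0564 and 0.0556 CPM at day 0, which covers counting error only. The pipeline was tested on simulated data before use. Libraries of the same replicate number did not deviate alike. The deviations of replicate 1 from its group mean had a correlation of -0.392 between day 49/52 and day 0. Replicate 1 of a group thus tended to deviate as replicate 2 of the other did, and the reason was not tested.

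A set of 55 gene lists, written as patterns on the deposited descriptions and adapted to their spelling, held 2994 members. Members and lists were chosen with earlier results of these data known, and 3 lists lost wrong matches (methyltransferases and a telomerase) after values were seen. Named genes are the 12 largest changes in each direction among described genes of at least 5 CPM with libraries that do not overlap, the 6 most abundant in each direction, the largest called member of each list in each direction at 1 CPM or more (or the smallest p), and the 2 largest in each direction without a description, 107 in all, of which 100 were called. No list was tested as a set. Alternatives changed the scaling, the filter, the libraries in the fit, the replicate block and the tool (DESeq2 1.42.0, and limma 3.58.1 on log2 RPKM with a pseudocount of 1 or 0.1).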

Additional observations from a re-analysis of the deposited data

How the results depend on the processing

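All 898 higher and 904 lower genes kept their direction in each of the 17 alternative settings in which they were tested, but the number of calls did not hold. With only the 4 compared libraries in the fit, 237 genes were higher and 67 lower, and with only the 6 watered leaf libraries 501 and 240. The cause was not tested. Leaving out 1 library at a time gave 1 to 903 higher and 2 to 1214 lower genes. The lone library of a group is then assumed to vary like the other groups, and the lowest counts came without a day 0 library, for which the cause was not tested. Without a filter 1905 genes were higher, by DESeq2 1667, and without the severe drought libraries (chosen after seeing the data) 1478 were lower. The cause was not tested. The other counts stayed within 1.5 times, among them those of both limma fits, the other scalings and the fit of all 22 libraries. The replicate block gave 705 higher and 652 lower genes. The numbers showed a negative correlation, so a crossed pairing was added after seeing the data and gave 944 and 1005. Of the values of named genes in the alternatives, 1283 kept their side of the threshold, 410 lost it and 12 gained it. At 41911089 to 53959267 reads per library, 3 reads stand for well under 1 CPM.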
